A study of Arabidopsis thaliana with 18 samples.

Results

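Arabidopsis thaliana seedlings kept at 27 °C held less transcript of 134 nuclear genes than seedlings kept at 21 °C, in each of 3 genotypes. These 134 genes were chosen by their measured values, so their lower level in warmth is a description and was not tested. Each had a mean of at least 5 TPM in wild type at 21 °C, and its value W was at most -0.8 in every genotype. TPM give transcript abundance as a share of a library's total, and W is the log2 of the group mean TPM plus 1 at 27 °C minus the same at 21 °C. Of 27445 nuclear genes in the table, 15372 reached the floor of 5 TPM, and 134 of those met the rule on W.

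The samples were whole 7-day-old seedlings raised in short days, as 18 RNA-seq libraries. h3.3kd is a line with reduced histone variant H3.3, labelled h3.3kd-1, with 3 libraries at 27 °C and 3 at 21 °C. elf7-3 carries a mutant ELF7 gene, whose product belongs to the Paf1 complex that travels with RNA polymerase II, also with 3 libraries at each temperature. Col, the wild type, had 3 libraries at each temperature. Each altered genotype was 1 line or allele, and the labels do not say how h3.3kd was made. They also leave it unsaid if replicates came from separate cultures, and p-values then reflect only how these libraries spread, which may be technical. The study's subject is thermomorphogenesis, the way plants elongate when moderately warm, and the part of histone variants in it.

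The targeted genes matched the labels. HTR4, a gene for H3.3, averaged 54.2 ± 3.75 TPM in h3.3kd and 338 ± 8.32 TPM in Col at 27 °C (SD, n = 3 each). At 21 °C it averaged 44.7 ± 0.887 TPM in h3.3kd and 427 ± 3.13 TPM in Col. Of the other H3.3 genes, HTR8 averaged 17.4 ± 2.40 TPM in h3.3kd and 189.6 ± 6.53 TPM in Col at 27 °C. HTR5 kept more of its level, with 265 ± 6.28 TPM in h3.3kd and 447 ± 22.6 TPM in Col at 27 °C, and 269.6 ± 9.67 TPM in h3.3kd and 601 ± 10.1 TPM in Col at 21 °C. ELF7 averaged 13.04 ± 0.486 TPM in elf7-3 and 40.7 ± 0.475 TPM in Col at 27 °C, and 9.04 ± 0.473 TPM in elf7-3 and 29.2 ± 1.72 TPM in Col at 21 °C. Between 18563 and 19225 genes reached 1 TPM per library. Replicates correlated across genes with r of 0.981 to 0.993 on the log2 scale. TPM carry no read depth, so no counting interval is given.

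Among the 134 genes are several groups whose biology is well known. Glutaredoxins are small enzymes that reduce disulphide bonds with glutathione, and the plant-specific type also binds TGA transcription factors. COR15A, COR15B, KIN2 and dehydrins accumulate in the cold and on drying, and they protect membranes and proteins of plant cells. LHCB proteins form the antenna that gathers light for photosystem II. Protease inhibitors, defensin-like peptides and the enzymes that steer glucosinolate breakdown act against herbivores and microbes. PIF7 is a transcription factor that drives stem elongation in shade and warmth.

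Together the 134 genes made up 0.617 ± 0.023% of all TPM in h3.3kd at 27 °C, against 1.71 ± 0.041% at 21 °C (SD, n = 3 each). In elf7-3 the shares were 0.742 ± 0.016% at 27 °C and 1.96 ± 0.084% at 21 °C. In Col they were 0.780 ± 0.027% at 27 °C and 2.10 ± 0.0091% at 21 °C. Every library at 27 °C lay below 0.809% and every library at 21 °C above 1.67%, a gap that the choice of genes by W brings about. The h3.3kd libraries were the lowest at each temperature, without overlap with those of the other genotypes. The floor of 5 TPM was set on Col at 21 °C alone, which favours genes that are high there. Genes that reached 100 TPM on average numbered 14 in h3.3kd at 27 °C, against 26 at 21 °C. In elf7-3 there were 18 at 27 °C and 37 at 21 °C, and in Col 17 at 27 °C and 37 at 21 °C. Whole seedlings were measured, so fewer cells of a type and less RNA per cell cannot be told apart.

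**Figure D1:**
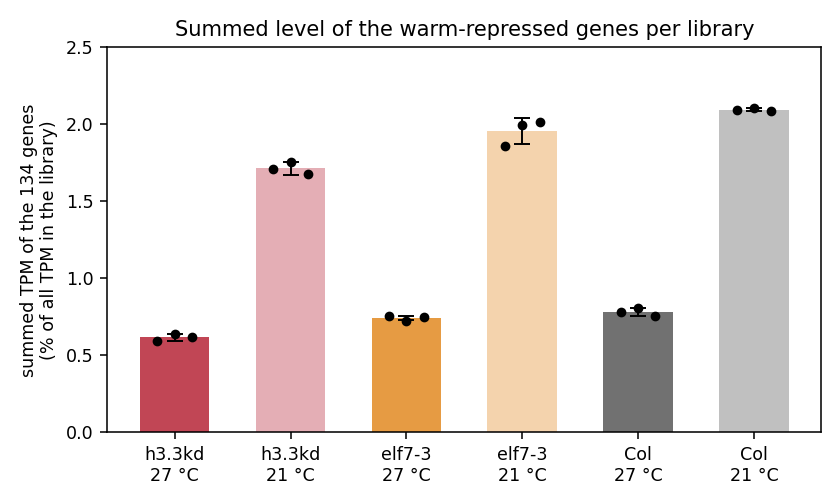
Share of all TPM held by the 134 genes in each of the 18 libraries, in percent, by genotype, with 27 °C left of 21 °C. Points are libraries, bars are means of 3 libraries and error bars are SD. The points at 27 °C lie between 0.592% and 0.808%, and those at 21 °C between 1.68% and 2.10%.

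W had a median over the 134 genes of -1.24 in h3.3kd, -1.16 in elf7-3 and -1.30 in Col. Over all 15372 genes at 5 TPM it was 0.01 in h3.3kd, 0.05 in elf7-3 and 0.05 in Col. The typical gene kept 38.6% of its level at 21 °C in h3.3kd, 42.5% in elf7-3 and 38.0% in Col. W was at most -1 for 105 genes in h3.3kd, 95 in elf7-3 and 108 in Col. It was at most -2 for 18 genes in h3.3kd, 12 in elf7-3 and 23 in Col. W was most negative in h3.3kd for 54 genes, in elf7-3 for 29 and in Col for 51. In Col all 134 genes had their 3 libraries at 27 °C below the 3 at 21 °C. In h3.3kd 133 genes did, the exception being GSTU25, and in elf7-3 132 did, the exceptions being AT1G19540 and KIN2. The rule chose the genes by the means of these same libraries, so such separation largely follows from it. The share among all genes was not computed.

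Many more genes met the rule in a single genotype. W was at most -0.8 in h3.3kd for 478 genes at 5 TPM, in elf7-3 for 401 and in Col for 656. The 134 genes were 28.0% of those in h3.3kd, 33.4% of those in elf7-3 and 20.4% of those in Col. By limma on log2(TPM + 1), called at an adjusted p under 0.05 over the 20048 genes tested, warmth lowered 19.7% of genes in h3.3kd, 18.3% in elf7-3 and 22.1% in Col. Higher in warmth were 26.1% in h3.3kd, 29.8% in elf7-3 and 32.9% in Col. The rule used these contrasts, so nothing is read from the members' place among them.

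The threshold cut through a continuous range. Just inside it were MIOX2, with a least negative W of -0.8006, AGT2 at -0.8027 and TCP4 at -0.8040. Just outside were AT1G12845 at -0.7997, AT1G63220 at -0.7973 and BRS1 at -0.7967. The widest spread of W over the genotypes was that of AT3G05727, with -5.28 in h3.3kd, -1.60 in elf7-3 and -3.01 in Col. MIOX2 followed, with -4.16 in h3.3kd, -0.80 in elf7-3 and -1.08 in Col. Next came AT2G05510, a glycine-rich protein gene, with -4.42 in h3.3kd, -1.48 in elf7-3 and -2.40 in Col. All 3 had their most negative W in h3.3kd. The smallest values of W are compressed where levels are near 0, since 1 TPM was added before the log.

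The genes were grouped by hand into roles, from their annotation, after the values were known. 83 genes fell into 11 roles and 51 had another or no stated role. In h3.3kd the median W was most negative for the 7 cold and dehydration genes, at -1.91, before the 12 genes of protease inhibitors and defence, at -1.76, and the 7 plant glutaredoxins, at -1.73. In elf7-3 it was most negative for the 9 genes of sugars and cell wall and for the glutaredoxins, both at -1.61, and the cold and dehydration genes had -1.34. In Col it was most negative for the glutaredoxins, at -2.62, and next for the cold and dehydration genes, at -2.06. It was least negative in Col for the 5 redox and detoxification genes, at -1.03. Among the 9 transcription regulators it was -1.06 in h3.3kd, -0.99 in elf7-3 and -1.22 in Col. These medians describe the chosen genes and were not tested.

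**Figure D2:**
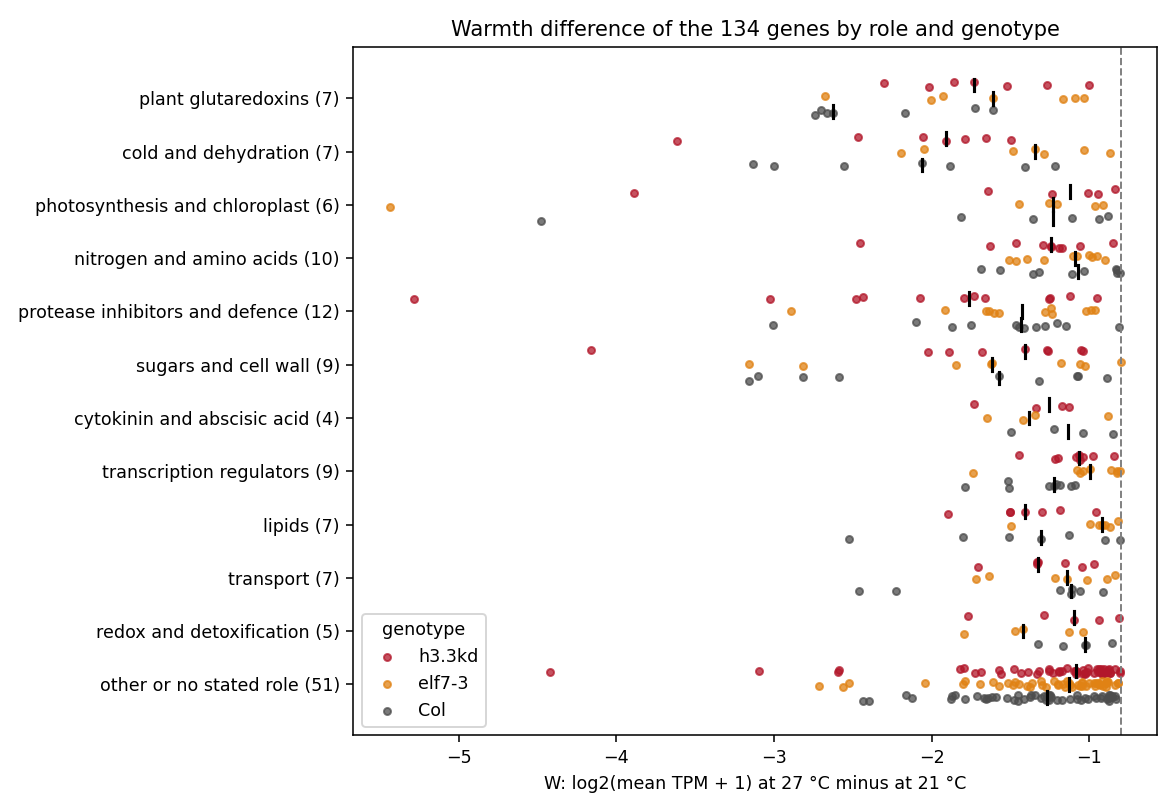
W of each of the 134 genes by role and genotype, on the log2 scale of TPM + 1, with the genes of no stated role as a group of their own. Points are genes, the short bars are medians and the dashed line marks the threshold of -0.8. The glutaredoxins and the cold and dehydration genes have the lowest medians in Col, at -2.62 and -2.06.

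The mutants were next compared with Col at the same temperature, a contrast that the rule did not use. The floor of 5 TPM in Col at 21 °C does favour genes that are high there, and both mutants are set against the same Col libraries. At 21 °C h3.3kd had 66 of the 134 genes lower than Col and 11 higher, against 20.8% lower and 12.7% higher among all genes tested. Their median log2 difference was -0.28, against -0.05 over all genes. At 27 °C 64 genes were lower and 29 higher, with 31.6% lower and 20.2% higher among all genes. The median was -0.31, against -0.07 over all genes. The lower share of the members, 49.3% at 21 °C and 47.8% at 27 °C, stood above the background at both temperatures. Among the 15372 genes at 5 TPM in Col at 21 °C, 23.2% were lower at 21 °C and 34.3% at 27 °C. Of the members' calls, 52 of 66 lower and 6 of 11 higher at 21 °C, and 53 of 64 lower and 20 of 29 higher at 27 °C, were made also without any 1 library. With median-of-ratios scaling the counts were 58 lower and 17 higher at 21 °C, and 55 lower and 37 higher at 27 °C, so the higher share of the calls moved to 40.2% at 27 °C from 31.2%.

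For elf7-3 the shares stood closer to the background. At 21 °C 37 genes were lower and 16 higher than in Col, with 15.4% lower and 13.3% higher among all genes tested. At 27 °C 31 were lower and 27 higher, with 18.5% lower and 16.4% higher among all genes. Their medians were -0.05 at 21 °C and 0.05 at 27 °C. The members' shares were 27.6% lower and 11.9% higher at 21 °C, and 23.1% lower and 20.2% higher at 27 °C. Among the 15372 genes at 5 TPM in Col at 21 °C, 17.9% were lower and 13.1% higher at 21 °C. At 27 °C 20.7% of these were lower and 18.2% higher, near the members' shares. Made also without any 1 library were 21 of the 37 lower and 7 of the 16 higher calls at 21 °C, and 21 of the 31 lower and 19 of the 27 higher calls at 27 °C. The count of higher genes at 21 °C was 8 without Col replicate 1 and 10 without replicate 1 or 3 of elf7-3. Called and more than 2-fold lower at 21 °C were 25 genes in h3.3kd and 11 in elf7-3, with 2.31% of all genes in h3.3kd and 0.888% in elf7-3. More than 2-fold higher there were 3 in h3.3kd and 0 in elf7-3, with 1.25% of all genes in h3.3kd and 1.11% in elf7-3. At 27 °C 26 were more than 2-fold lower in h3.3kd and 3 in elf7-3, with 4.65% of all genes in h3.3kd and 1.24% in elf7-3. More than 2-fold higher there were 6 in h3.3kd and 5 in elf7-3, with 2.11% of all genes in h3.3kd and 0.793% in elf7-3.

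The mutants were also compared with each other, a comparison added after the data were seen. At 21 °C 61 genes were lower in h3.3kd than in elf7-3 and 16 higher, against 25.9% and 19.3% of all genes. At 27 °C 65 were lower and 27 higher, against 31.6% and 21.6% of all genes. Median differences were -0.27 at 21 °C and -0.38 at 27 °C. Of the 134 genes, 51 were lower and 7 higher than Col at both temperatures in h3.3kd, against 14.6% lower and 8.31% higher at both among all genes. In elf7-3 21 were lower and 10 higher at both, against 9.21% and 6.52% of all genes. 8 genes were called in opposite directions at the 2 temperatures in h3.3kd, AT2G05510, AT4G15690, AT5G46960, EMB3108, FTSZ1-1, LHCB3, MLP423 and OEP6, against 1.3% of all genes. In elf7-3 EMB3108 alone was, against 0.778% of all genes. Such a shift between temperatures amounts to a difference in W between mutant and Col. The rule chose genes by large W, which may favour opposite calls, so nothing is read from these counts. 18 genes were called in none of the 4 comparisons with Col, among them PIF7, the dehydrin LTI30 and the haemoglobin HB1. Below, a comparison with Col that is left unmentioned for a gene may have been called too, mostly with a call that was lost without 1 of the libraries. The counts by role below are to be read against the shares of all genes tested. In h3.3kd these were 20.8% lower and 12.7% higher at 21 °C, and 31.6% lower and 20.2% higher at 27 °C. In elf7-3 they were 15.4% lower and 13.3% higher at 21 °C, and 18.5% lower and 16.4% higher at 27 °C. Several roles lie near these shares, and no role was tested.

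**Figure D3:**
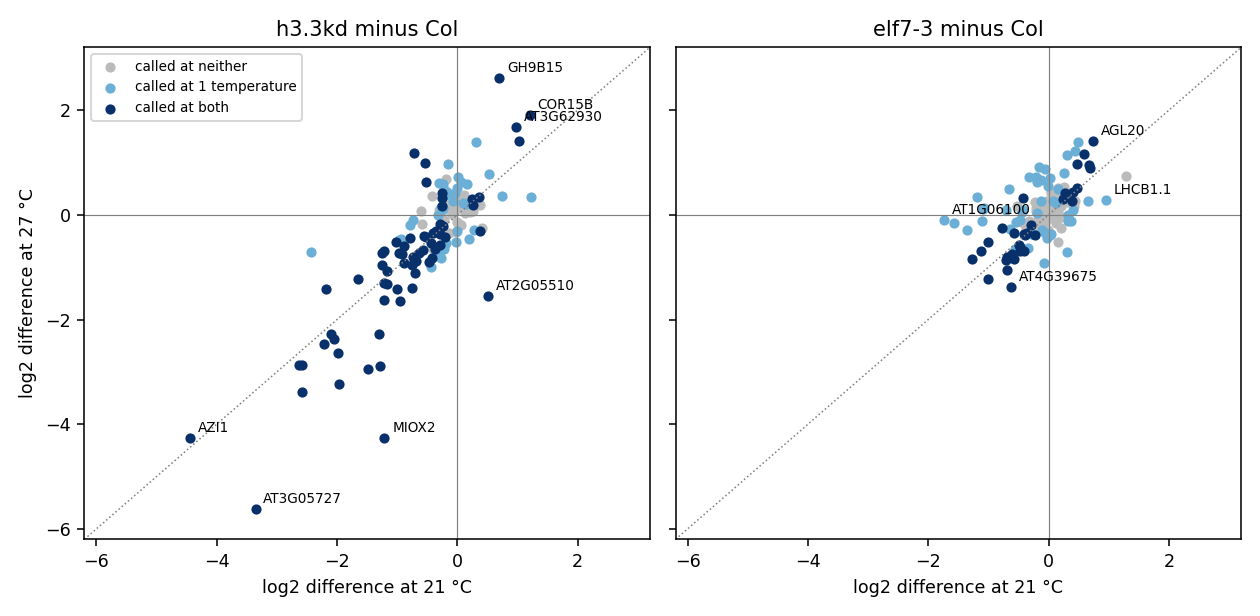
Log2 difference of each of the 134 genes between h3.3kd (left) or elf7-3 (right) and Col, at 21 °C on the x axis and 27 °C on the y axis. Dark points were called at both temperatures, lighter points at 1 of them and grey points at neither. In h3.3kd 51 genes are lower at both temperatures, against 14.6% of all genes tested, and in elf7-3 21, against 9.21%.

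Glutaredoxin genes were the largest family among the 134, with 7 genes annotated with the plant-type glutaredoxin domain. The table holds 21 genes of this family, of which 12 reached 5 TPM in Col at 21 °C. 5 of the 21 stand in a run on chromosome 4, AT4G15660, AT4G15670, AT4G15680, AT4G15690 and AT4G15700, and all but AT4G15670 are among the 134. AT4G15670 averaged 4.21 TPM in Col at 21 °C and so missed the floor. Coding sequences in the run are 88.3% to 93.2% identical, and some reads could have been counted for a neighbour. The promoters of the 4 are shown because they share 1 stretch of 11 bases, set in capitals. The 250 bases before each gene's start are given 5′ to 3′ on the gene's strand, from RefSeq on TAIR10.1.
AT4G15660 (chr4:8925321-8925570, plus strand): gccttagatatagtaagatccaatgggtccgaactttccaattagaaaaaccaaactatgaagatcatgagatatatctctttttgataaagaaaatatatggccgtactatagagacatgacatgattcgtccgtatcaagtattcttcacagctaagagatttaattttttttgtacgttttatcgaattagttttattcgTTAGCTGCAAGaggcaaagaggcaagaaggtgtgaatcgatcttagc
AT4G15680 (chr4:8931367-8931616, plus strand): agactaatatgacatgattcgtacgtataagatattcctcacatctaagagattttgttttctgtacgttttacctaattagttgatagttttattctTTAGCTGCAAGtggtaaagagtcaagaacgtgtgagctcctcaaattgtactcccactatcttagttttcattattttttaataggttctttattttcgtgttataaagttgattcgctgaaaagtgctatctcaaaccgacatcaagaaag
AT4G15690 (chr4:8934046-8934295, plus strand): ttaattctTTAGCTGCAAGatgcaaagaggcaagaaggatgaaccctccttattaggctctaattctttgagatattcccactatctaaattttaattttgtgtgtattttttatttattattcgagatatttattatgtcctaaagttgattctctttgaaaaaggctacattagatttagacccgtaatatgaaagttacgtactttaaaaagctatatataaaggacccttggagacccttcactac
AT4G15700 (chr4:8937108-8937357, plus strand): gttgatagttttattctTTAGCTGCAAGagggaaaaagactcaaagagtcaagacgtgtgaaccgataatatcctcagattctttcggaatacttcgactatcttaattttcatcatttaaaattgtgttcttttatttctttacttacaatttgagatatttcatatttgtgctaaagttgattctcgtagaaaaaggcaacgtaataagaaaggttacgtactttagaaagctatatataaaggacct

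The stretch TTAGCTGCAAG, searched on both strands, lies in the promoters of all 5 genes of the run and in 6 of 27444 promoters of nuclear genes, or 0.0219%. It begins 47 bases before the start of AT4G15660, 152 before AT4G15680, 242 before AT4G15690 and 233 before AT4G15700. It was found by comparing these 5 promoters, which are alike in their neighbourhood too, and a match is no proof of a binding site. The TGA core TGACG was found in none of the 4 windows.

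AT4G15690 lies on chromosome 4 from 8934296 to 8934961 and had 8.89, 7.87 and 8.74 TPM at 27 °C, against 23.7, 28.5 and 26.4 TPM at 21 °C, in h3.3kd. AT4G15690 in elf7-3 had 11.05, 8.56 and 7.87 TPM at 27 °C, against 32.3, 24.6 and 33.3 TPM at 21 °C. AT4G15690 in Col had 4.77, 4.72 and 5.94 TPM at 27 °C, against 34.7, 37.5 and 41.5 TPM at 21 °C. Every genotype's libraries at 27 °C were below those at 21 °C, and the Col libraries had both the highest values at 21 °C and the lowest at 27 °C. At 27 °C it was higher than in Col by 0.63 (log2) in h3.3kd (adjusted p = 0.000465) and by 0.72 in elf7-3 (adjusted p = 0.000308), by limma with Benjamini-Hochberg adjustment, as are all adjusted p-values below. At 21 °C it was lower in h3.3kd (-0.51 ± 0.13, adjusted p = 0.00464, the ± being the standard error from 3 libraries against 3) and not called in elf7-3 (-0.33).

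AT5G18600, which stands alone on chromosome 5 from 6183166 to 6184038, was the most abundant of the 7 in Col. AT5G18600 in h3.3kd had 30.1, 31.2 and 27.7 TPM at 27 °C, against 67.5, 70.2 and 80.8 TPM at 21 °C. AT5G18600 in elf7-3 had 35.8, 29.9 and 36.2 TPM at 27 °C, against 73.5, 78.3 and 68.4 TPM at 21 °C. AT5G18600 in Col had 44.1, 39.2 and 38.7 TPM at 27 °C, against 129.8, 133 and 116 TPM at 21 °C. The Col libraries at 21 °C stood above all others. Against Col at 21 °C it was lower in h3.3kd (-0.79 ± 0.086, adjusted p = 1.82e-06) and in elf7-3 (-0.78 ± 0.086, adjusted p = 4.58e-06). At 27 °C it was lower in h3.3kd (-0.44, adjusted p = 0.000339) and in elf7-3 (-0.25, a call lost without Col replicate 1 or elf7-3 replicate 2, with -0.30 to -0.17 over the fits that leave out 1 library).

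AT3G62930 went the other way in h3.3kd. It had 26.5, 30.2 and 21.7 TPM at 27 °C, against 55.04, 58.9 and 46.1 TPM at 21 °C, in h3.3kd. AT3G62930 in elf7-3 had 11.4, 17.4 and 12.6 TPM at 27 °C, against 33.5, 26.8 and 36.3 TPM at 21 °C. AT3G62930 in Col had 7.69, 6.82 and 7.76 TPM at 27 °C, against 21.03, 28.4 and 31.2 TPM at 21 °C. All libraries of h3.3kd exceeded those of Col at the same temperature. It was higher than in Col by 1.68 ± 0.16 (adjusted p = 1.53e-07) at 27 °C and by 0.97 ± 0.16 (adjusted p = 0.000165) at 21 °C, and in elf7-3 it was higher at 27 °C (0.79 ± 0.16, adjusted p = 0.000991). Directly, h3.3kd exceeded elf7-3 by 0.88 at 27 °C and 0.71 at 21 °C.

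Of the 7 genes, 3 were lower and 1 higher than Col in h3.3kd at 21 °C, and 1 lower and 2 higher at 27 °C. In elf7-3 the counts were 2 lower and 0 higher at 21 °C, and 1 lower and 4 higher at 27 °C. AT4G15680 was among the 4, higher by 1.22 ± 0.22 (adjusted p = 0.000308), with 5.14 ± 1.69 TPM at 27 °C, against 22.3 ± 3.70 TPM at 21 °C, in elf7-3 and 1.66 ± 0.873 TPM at 27 °C, against 16.3 ± 3.89 TPM at 21 °C, in Col (SD, n = 3 each). AT1G03020 was lower in h3.3kd at 21 °C (-0.93 ± 0.20, adjusted p = 0.00166), with 4.35 ± 0.268 TPM there and 9.26 ± 1.39 TPM in Col, and with a pseudocount of 0.1 it was not called (-1.06). AT4G15700, with 4.99 ± 2.81 TPM at 27 °C, against 20.7 ± 4.90 TPM at 21 °C, in h3.3kd and 4.30 ± 1.22 TPM at 27 °C, against 31.7 ± 1.45 TPM at 21 °C, in Col, was called in neither mutant at either temperature. The family had no common direction against Col.

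18 of the 21 family genes could be tested for warmth, and the 7 members count among those lower by construction. Of the 11 others, 3 were lower and 1 higher in warmth in h3.3kd, 4 lower and 1 higher in elf7-3, and 8 lower and 1 higher in Col, to be read against the shares of all genes changed by warmth given above. AT2G30540 was lower in all 3 genotypes, with log2 differences of -0.72 in h3.3kd, -0.75 in elf7-3 and -1.28 in Col. AT3G62960 was higher in warmth in h3.3kd (0.71) and lower in Col (-1.01). AT4G33040 was higher in elf7-3 (0.52) and Col (0.54). These examples were chosen after their values were seen.

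**Figure D4:**
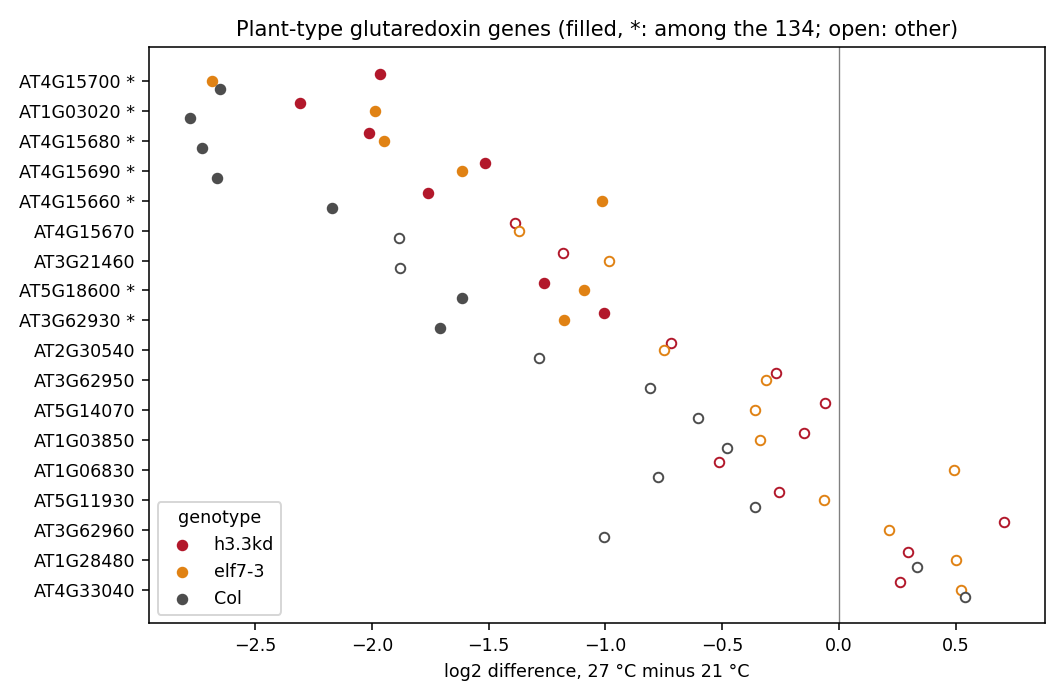
Log2 difference of TPM + 1 between 27 °C and 21 °C in each genotype, for the tested genes of the plant-type glutaredoxin family. Filled points are the 7 genes among the 134, which were chosen by this difference, and open points are the other genes of the family. The 5 genes of the run on chromosome 4 lie low in every genotype, with Col between -1.88 and -2.73.

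Of the 7 cold and dehydration genes, h3.3kd had 3 higher and 1 lower than Col at 21 °C and 4 higher and 1 lower at 27 °C. elf7-3 had 0 higher and 4 lower at 21 °C and 2 higher and 1 lower at 27 °C. COR15A and COR15B are neighbours, 7 bases apart on chromosome 2, and encode stromal proteins that stabilise chloroplast membranes on freezing. The promoter of COR15A is shown because its libraries at 21 °C did not overlap between genotypes and because it holds the CRT/DRE core CCGAC, the site read by CBF factors in cold, 2 times. The core was found 3 times in the window of LTI30, which was not called in either mutant, at least once in that of AT4G30650, and not in those of KIN2, COR15B, SAG21 and the dehydrin AT1G54410. CCGAC on either strand is in capitals, and the bases run 5′ to 3′ on the gene's strand, from RefSeq on TAIR10.1.
COR15A (chr2:17712331-17712580, minus strand): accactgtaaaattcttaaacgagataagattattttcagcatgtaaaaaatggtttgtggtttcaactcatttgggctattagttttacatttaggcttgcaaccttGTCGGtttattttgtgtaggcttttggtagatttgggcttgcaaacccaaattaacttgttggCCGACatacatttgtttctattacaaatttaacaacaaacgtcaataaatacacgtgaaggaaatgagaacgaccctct

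COR15A lies on chromosome 2 from 17710441 to 17712330 and had 0.273, 0.554 and 1.35 TPM at 27 °C, against 18.3, 7.79 and 34.2 TPM at 21 °C, in h3.3kd. COR15A in elf7-3 had 0.389, 0.389 and 0.574 TPM at 27 °C, against 2.31, 3.03 and 2.71 TPM at 21 °C. COR15A in Col had 0.198, 0.369 and 0.399 TPM at 27 °C, against 6.43, 6.74 and 7.15 TPM at 21 °C. Levels at 27 °C were near 0 in all genotypes, and at 21 °C the genotypes did not overlap, with h3.3kd highest and elf7-3 lowest. There it was higher than Col in h3.3kd (1.22 ± 0.33, adjusted p = 0.00747) and lower in elf7-3 (-1.08 ± 0.33, adjusted p = 0.0186), and h3.3kd exceeded elf7-3 by 2.31 ± 0.33 (adjusted p = 1.87e-05). The h3.3kd call was lost without h3.3kd replicate 3 at 21 °C (0.75, adjusted p = 0.0502). The elf7-3 call was lost without Col replicate 3 (-1.05, adjusted p = 0.0535) or elf7-3 replicate 1 (-1.01, adjusted p = 0.0571) at 21 °C, by limma.

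COR15B, on chromosome 2 from 17708593 to 17710433, had 4.06, 3.13 and 4.45 TPM at 27 °C, against 22.5, 12.2 and 43.4 TPM at 21 °C, in h3.3kd. COR15B in elf7-3 had 0.499, 0.400 and 1.08 TPM at 27 °C, against 3.92, 2.57 and 4.43 TPM at 21 °C. COR15B in Col had 0.102, 0.190 and 0.614 TPM at 27 °C, against 9.28, 8.53 and 10.5 TPM at 21 °C. At 27 °C every h3.3kd library lay above every library of elf7-3 and Col. Against Col it was higher in h3.3kd at 21 °C (1.20 ± 0.30, adjusted p = 0.00526) and at 27 °C (1.92 ± 0.30, adjusted p = 4.45e-05), and in elf7-3 it was lower at 21 °C (-1.19 ± 0.30, adjusted p = 0.00695). h3.3kd exceeded elf7-3 by 2.39 at 21 °C and 1.57 at 27 °C. Its window lies inside the annotated COR15A gene.

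SAG21, a late embryogenesis abundant protein, was the most abundant gene of this role in Col at 21 °C. It averaged 379.6 ± 16.8 TPM at 27 °C, against 1430.0 ± 71.2 TPM at 21 °C, in h3.3kd (SD, n = 3 each). It had 231 ± 6.49 TPM at 27 °C, against 956 ± 54.5 TPM at 21 °C, in elf7-3 and 301 ± 6.29 TPM at 27 °C, against 1111 ± 38.6 TPM at 21 °C, in Col. It was higher than Col in h3.3kd at both temperatures (0.36 at 21 °C and 0.33 at 27 °C) and lower in elf7-3 at both (-0.22 and -0.38). KIN2 had 8.79, 5.56 and 17.8 TPM at 27 °C, against 22.1, 15.4 and 23.7 TPM at 21 °C, in elf7-3, where the temperatures overlapped. KIN2 in Col had 10.9, 13.5 and 11.95 TPM at 27 °C, against 46.6, 50.5 and 63.8 TPM at 21 °C. It was lower in elf7-3 than in Col at 21 °C (-1.36 ± 0.29, adjusted p = 0.00212). AT4G30650, a small membrane protein induced by cold and salt, was higher at 27 °C in h3.3kd (1.39 ± 0.22, adjusted p = 3.59e-05) and in elf7-3 (0.88 ± 0.22, adjusted p = 0.00426). The dehydrin AT1G54410 was lower in h3.3kd at both temperatures (-0.29 at 21 °C and -0.57 at 27 °C) and higher in elf7-3 at 27 °C (0.27), and the dehydrin LTI30 was not called in either mutant.

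**Figure D5:**
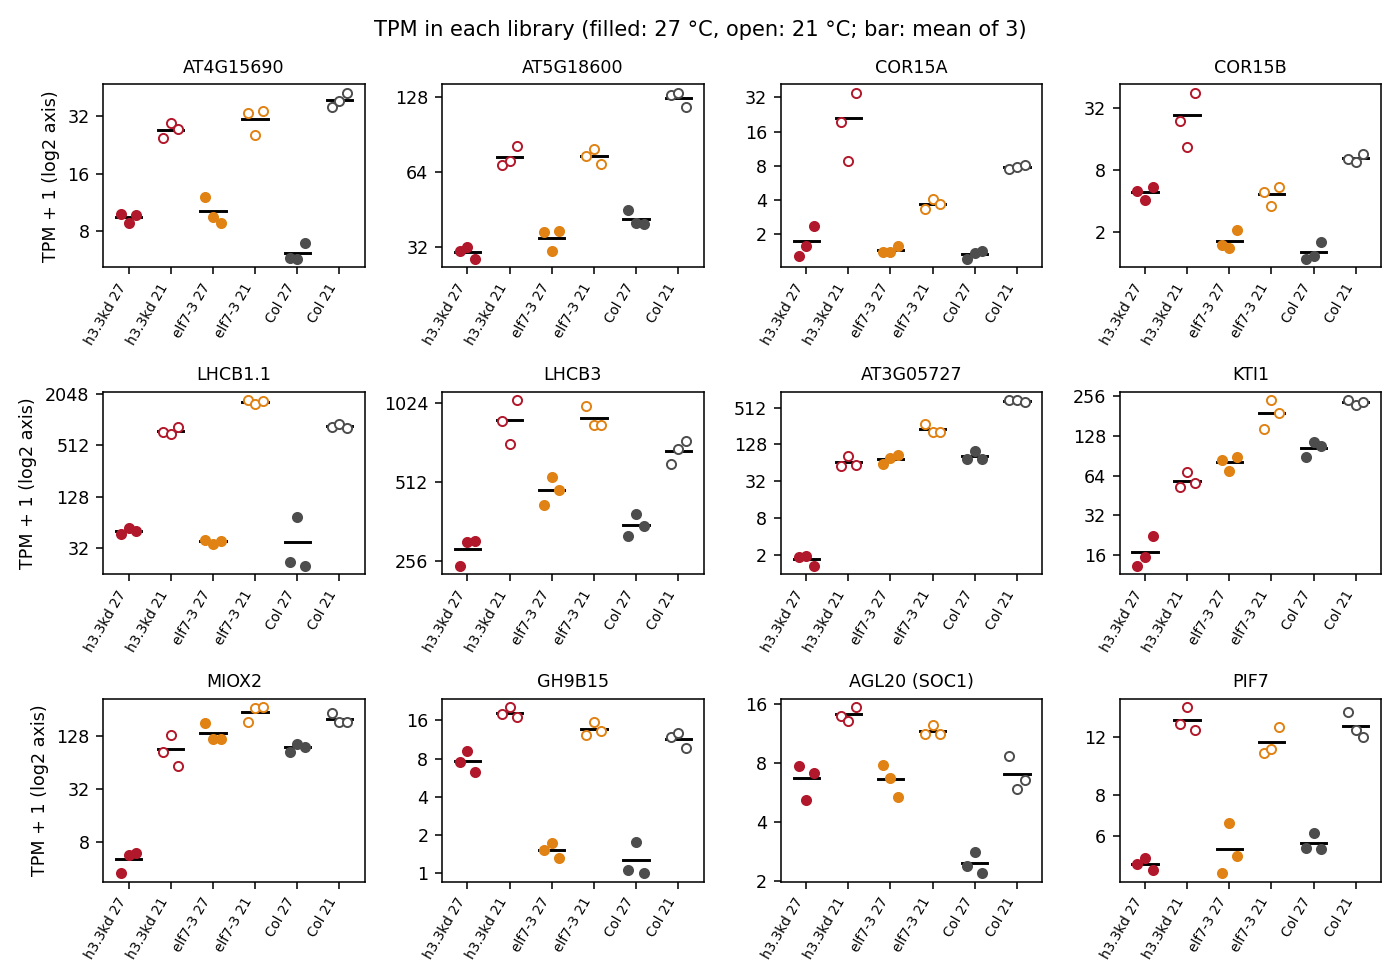
TPM + 1 of 12 of the 134 genes in each of the 18 libraries, on a log2 axis, with the genotypes h3.3kd, elf7-3 and Col from left to right. Filled points are libraries at 27 °C, open points libraries at 21 °C and bars are means of 3 libraries. MIOX2 and AT3G05727 are lowest in h3.3kd at 27 °C, where COR15B and GH9B15 stay higher than in Col.

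LHCB1.1, an antenna gene on chromosome 1 from 10474656 to 10475969, had the most negative mean W of all 134 genes. LHCB1.1 in h3.3kd had 45.7, 53.3 and 50.3 TPM at 27 °C, against 721, 689 and 838 TPM at 21 °C. LHCB1.1 in elf7-3 had 39.2, 34.4 and 38.1 TPM at 27 °C, against 1737, 1546 and 1681 TPM at 21 °C. LHCB1.1 in Col had 20.8, 72.1 and 18.6 TPM at 27 °C, against 830.2, 908 and 816 TPM at 21 °C. Col replicate 2 at 27 °C stood above its fellows, yet no library at 27 °C came near any at 21 °C. At 21 °C LHCB1.1 was called higher in elf7-3 than in Col, the largest called rise among the 134 genes in that comparison. How that call held without 1 library is not given here. LHCB1.1 was lower in h3.3kd than in elf7-3 at 21 °C (-1.15 ± 0.30, adjusted p = 0.00458). At 27 °C it was not called against Col in h3.3kd (0.69 ± 0.30, adjusted p = 0.0634) or in elf7-3 (0.28 ± 0.30, adjusted p = 0.505). Without Col replicate 2 at 27 °C both calls were made, at 1.29 in h3.3kd and 0.89 in elf7-3. With median-of-ratios scaling the h3.3kd call was made too (0.78). Coding sequences of the LHCB1 genes LHCB1.1, LHCB1.2 and LHCB1.3 are 95.7% to 96.4% identical, so a read of 1 gene could have been counted for another.

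LHCB3, another antenna gene, averaged 282 ± 33.8 TPM at 27 °C, against 883 ± 171 TPM at 21 °C, in h3.3kd (SD, n = 3 each). It averaged 476 ± 58.8 TPM at 27 °C, against 897 ± 88.03 TPM at 21 °C, in elf7-3 and 351 ± 33.9 TPM at 27 °C, against 674 ± 65.9 TPM at 21 °C, in Col. h3.3kd was lower than elf7-3 at 27 °C (-0.75 ± 0.13, adjusted p = 8.72e-05). Against Col, h3.3kd was higher at 21 °C (0.38, a call lost without Col replicate 1, Col replicate 2, h3.3kd replicate 1 or h3.3kd replicate 3, with 0.24 to 0.52 over the fits that leave out 1 library). h3.3kd was lower than Col at 27 °C (-0.32, a call lost without Col replicate 2, Col replicate 3 or h3.3kd replicate 1, with -0.38 to -0.21 over the fits that leave out 1 library). elf7-3 was higher than Col at 21 °C (0.41, a call lost without Col replicate 1 or elf7-3 replicate 1, with 0.33 to 0.48 over the fits that leave out 1 library) and at 27 °C (0.44, a call lost without Col replicate 1 or elf7-3 replicate 2, with 0.35 to 0.53 over the fits that leave out 1 library). FNR2, ferredoxin-NADP reductase at the end of the electron chain, was higher in h3.3kd than in Col at both temperatures (0.25 ± 0.065, adjusted p = 0.00702 at 21 °C and 0.29 ± 0.065, adjusted p = 0.000996 at 27 °C), and higher in elf7-3 at 21 °C (0.41). OEP6, an outer envelope protein of the chloroplast, was the most abundant of the 134 in Col at 21 °C. OEP6 in h3.3kd had 674, 728 and 648 TPM at 27 °C, against 1630.2, 1466 and 1745 TPM at 21 °C. OEP6 in elf7-3 had 477, 482 and 564 TPM at 27 °C, against 1454, 1323 and 1370.3 TPM at 21 °C. OEP6 in Col had 621, 565 and 458 TPM at 27 °C, against 1789.7, 2055 and 1938 TPM at 21 °C. Libraries at 27 °C held less than libraries at 21 °C in each genotype. OEP6 was lower than Col in elf7-3 at 21 °C (-0.48 ± 0.10, adjusted p = 0.00134). In h3.3kd it was lower at 21 °C (-0.26, a call lost without Col replicate 2, Col replicate 3, h3.3kd replicate 1 or h3.3kd replicate 2, with -0.32 to -0.19 over the fits that leave out 1 library) and higher at 27 °C (0.33, a call lost without Col replicate 3, with 0.20 to 0.42 over the fits that leave out 1 library). FTSZ1-1, of the plastid division ring, was lower in h3.3kd at 21 °C (-0.25 ± 0.067, adjusted p = 0.00691). At 27 °C it was higher in elf7-3 (0.26 ± 0.067, adjusted p = 0.00501) and in h3.3kd (0.16, a call lost without Col replicate 2, Col replicate 3, h3.3kd replicate 1, h3.3kd replicate 2 or h3.3kd replicate 3, with 0.11 to 0.24 over the fits that leave out 1 library). CRR42, needed for assembly of the chloroplast NDH complex, was called in none of the 4 comparisons.

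Of the 10 genes of nitrogen and amino acid metabolism, h3.3kd had 1 higher and 2 lower than Col at 21 °C and 2 higher and 4 lower at 27 °C. elf7-3 had 0 higher and 2 lower at 21 °C, and 0 higher and 3 lower at 27 °C. NIA2, the main nitrate reductase of Arabidopsis, lies on chromosome 1 from 14158452 to 14161938 and had 564, 657 and 718 TPM at 27 °C, against 1875, 1794 and 1686 TPM at 21 °C, in h3.3kd. NIA2 in elf7-3 had 486, 451 and 506 TPM at 27 °C, against 927, 1011 and 921 TPM at 21 °C. NIA2 in Col had 868, 887 and 885 TPM at 27 °C, against 1417, 1554 and 1695 TPM at 21 °C. The elf7-3 libraries were the lowest at both temperatures. Against Col it was lower in elf7-3 at 21 °C (-0.70 ± 0.080, adjusted p = 6.26e-06) and at 27 °C (-0.87 ± 0.080, adjusted p = 3.8e-07), and in h3.3kd at 27 °C (-0.45 ± 0.080, adjusted p = 0.000138).

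ERD5, the proline dehydrogenase that begins proline breakdown, had 127, 109 and 102 TPM at 27 °C, against 568, 889 and 406 TPM at 21 °C, in h3.3kd. ERD5 in elf7-3 had 412, 266 and 303 TPM at 27 °C, against 557, 989 and 1041 TPM at 21 °C. ERD5 in Col had 304, 398 and 365 TPM at 27 °C, against 1327, 1112 and 1004 TPM at 21 °C. At 21 °C replicates spread widely in both mutants. It was lower in h3.3kd than in Col at 21 °C (-0.95 ± 0.25, adjusted p = 0.00621) and at 27 °C (-1.65 ± 0.25, adjusted p = 2.28e-05). GAD2, a glutamate decarboxylase that makes GABA, was lower in h3.3kd at both temperatures (-0.41 at 21 °C and -0.83 at 27 °C) and lower in elf7-3 at 27 °C (-0.34). ASN2, an asparagine synthetase, averaged 146 ± 7.47 TPM at 27 °C, against 454 ± 5.01 TPM at 21 °C, in h3.3kd and 112 ± 13.3 TPM at 27 °C, against 311 ± 4.07 TPM at 21 °C, in elf7-3, and h3.3kd exceeded elf7-3 by 0.55 at 21 °C and 0.38 at 27 °C. ASPGB1, which breaks asparagine down, GDU5, linked to glutamine export, PAI2 of tryptophan synthesis and the aminotransferase AGT3 were called in none of the 4 comparisons with Col. The related AGT2 was lower in h3.3kd at 27 °C (-0.60 ± 0.11, adjusted p = 0.000243). AT2G44040, a reductase of lysine synthesis, was higher there (0.42 ± 0.10, adjusted p = 0.00145).

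The 12 genes of protease inhibitors and defence were mostly lower in h3.3kd, with 10 lower and 0 higher than Col at 21 °C and 11 lower and 0 higher at 27 °C. elf7-3 had 4 lower and 1 higher at 21 °C, and 6 lower and 1 higher at 27 °C. Their roles were assigned by hand after the values were known, so the counts are a description. The peroxidase genes AT5G64110 and AT5G64120, and AT3G05727, were placed here although their annotation does not name defence. AT3G05727, annotated as an SLR1-binding pollen coat family protein, and AT3G05730, a defensin-like peptide, are neighbours on chromosome 3, 1015 bases apart. AT3G05727, on chromosome 3 from 1693548 to 1694140, had 0.869, 0.883 and 0.307 TPM at 27 °C, against 55.7, 80.3 and 58.3 TPM at 21 °C, in h3.3kd. AT3G05727 in elf7-3 had 59.2, 75.7 and 84.8 TPM at 27 °C, against 273, 201 and 199.7 TPM at 21 °C. AT3G05727 in Col had 72.4, 98.6 and 74.1 TPM at 27 °C, against 680.4, 682 and 627 TPM at 21 °C. Values at 21 °C were lowest in h3.3kd and highest in Col without overlap, and at 27 °C h3.3kd alone was near 0. The log2 difference between h3.3kd and Col was -5.62 ± 0.17 (adjusted p = 6.41e-14) at 27 °C and -3.36 ± 0.17 (adjusted p = 1.3e-10) at 21 °C, and AT3G05727 was lower in elf7-3 at 21 °C (-1.57 ± 0.17, adjusted p = 3.85e-06). AT3G05730 was lower in h3.3kd too (-2.89 ± 0.15, adjusted p = 6.23e-11 at 27 °C and -1.28 ± 0.15, adjusted p = 3.14e-06 at 21 °C), with 26.1 ± 8.45 TPM at 27 °C, against 219.8 ± 10.8 TPM at 21 °C, in h3.3kd and 194 ± 15.3 TPM at 27 °C, against 537 ± 40.3 TPM at 21 °C, in Col.

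AZI1, a lipid transfer-like protein of systemic defence priming, had 0, 0.404 and 0.210 TPM at 27 °C, against 1.20, 1.97 and 2.40 TPM at 21 °C, in h3.3kd. AZI1 in elf7-3 had 25.1, 32.9 and 18.6 TPM at 27 °C, against 61.5, 88.4 and 98.1 TPM at 21 °C. AZI1 in Col had 24.6, 21.2 and 20.5 TPM at 27 °C, against 63.4, 61.1 and 57.1 TPM at 21 °C. The h3.3kd libraries stood far below the others at both temperatures. The log2 difference between h3.3kd and Col was -4.45 ± 0.20 (adjusted p = 2.79e-11) at 21 °C and -4.27 ± 0.20 (adjusted p = 2.08e-11) at 27 °C, and elf7-3 was not called (0.42 and 0.17).

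KTI1, a Kunitz trypsin inhibitor, had 12.2, 14.4 and 21.2 TPM at 27 °C, against 51.6, 66.7 and 54.8 TPM at 21 °C, in h3.3kd. KTI1 in elf7-3 had 83.7, 68.3 and 87.7 TPM at 27 °C, against 143, 238 and 188 TPM at 21 °C. KTI1 in Col had 87.96, 115 and 106 TPM at 27 °C, against 239, 218 and 231 TPM at 21 °C. Here too h3.3kd was lowest at each temperature, without overlap. Its log2 difference from Col was -1.98 ± 0.18 (adjusted p = 1.84e-07) at 21 °C and -2.65 ± 0.18 (adjusted p = 1.78e-09) at 27 °C. UPI, a serine protease inhibitor of the potato inhibitor family, was lower in h3.3kd at 21 °C (-1.23 ± 0.20, adjusted p = 0.000175) and 27 °C (-1.62 ± 0.20, adjusted p = 3.73e-06), and lower in elf7-3 at 27 °C (-0.91 ± 0.20, adjusted p = 0.00218). The trypsin inhibitor TI1 was lower at 27 °C in h3.3kd (-0.77) and in elf7-3 (-0.85). The adjacent peroxidase genes AT5G64110 and AT5G64120 were lower in h3.3kd, at log2 differences of -2.58 and -1.97 at 21 °C and of -2.86 and -3.23 at 27 °C. AT5G64110 was lower in elf7-3 too (-1.13 at 21 °C and -0.69 at 27 °C). The receptor-like kinases CRK12 and CRK30 were lower in h3.3kd at both temperatures, at -1.22 and -0.97 at 21 °C, and lower in elf7-3 at 27 °C, at -0.74 and -0.63.

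ESM1, which favours isothiocyanates among the products of glucosinolate breakdown, differed in direction between the mutants. ESM1 in h3.3kd had 10.7, 19.2 and 15.2 TPM at 27 °C, against 90.9, 67.8 and 107 TPM at 21 °C. ESM1 in elf7-3 had 84.8, 101 and 88.6 TPM at 27 °C, against 239.9, 217 and 213 TPM at 21 °C. ESM1 in Col had 38.2, 44.5 and 37.9 TPM at 27 °C, against 119, 162 and 169 TPM at 21 °C. At 27 °C the genotypes did not overlap, with elf7-3 highest and h3.3kd lowest. The log2 difference from Col at 27 °C was -1.39 ± 0.17 (adjusted p = 3.3e-06) in h3.3kd and 1.17 ± 0.17 (adjusted p = 5.83e-05) in elf7-3, and between h3.3kd and elf7-3 it was -2.56 ± 0.17 (adjusted p = 1.68e-09). At 21 °C ESM1 was lower than Col in h3.3kd (-0.76) and higher in elf7-3 (0.59, a call lost without Col replicate 1 or elf7-3 replicate 1, with 0.43 to 0.68 over the fits that leave out 1 library). NSP3, a nitrile specifier protein of the same pathway, was not called in any of the 4 comparisons.

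Of the 9 genes of sugars and cell wall, h3.3kd had 1 higher and 6 lower than Col at 21 °C, and 3 higher and 5 lower at 27 °C. elf7-3 had 1 higher and 2 lower at 21 °C, and 2 higher and 1 lower at 27 °C. MIOX2 and MIOX4 encode myo-inositol oxygenases, which feed cell wall sugar synthesis. MIOX2, on chromosome 2 from 8530865 to 8533779, had 2.56, 4.73 and 5.12 TPM at 27 °C, against 83.2, 131 and 58.6 TPM at 21 °C, in h3.3kd. MIOX2 in elf7-3 had 181, 119 and 119 TPM at 27 °C, against 186, 270.3 and 276 TPM at 21 °C. MIOX2 in Col had 84.1, 105 and 96.5 TPM at 27 °C, against 236, 187 and 184 TPM at 21 °C. At 27 °C the h3.3kd libraries were far below the others. In elf7-3 the temperatures nearly met, at 181 and 186 TPM. The log2 difference between h3.3kd and Col was -4.26 ± 0.25 (adjusted p = 3.25e-10) at 27 °C and -1.21 ± 0.25 (adjusted p = 0.00109) at 21 °C. MIOX4 was listed at 0 in all 3 h3.3kd libraries at 27 °C and averaged 1.07 ± 0.582 TPM at 21 °C, against 0.657 ± 0.310 TPM at 27 °C and 10.7 ± 5.32 TPM at 21 °C in Col (SD, n = 3 each). At 21 °C it was lower in h3.3kd than in Col (-2.44 ± 0.32, adjusted p = 1.52e-05).

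GH9B15, an endoglucanase family gene, was highest in h3.3kd. GH9B15 in h3.3kd had 6.57, 8.21 and 5.31 TPM at 27 °C, against 16.8, 19.5 and 15.9 TPM at 21 °C. GH9B15 in elf7-3 had 0.536, 0.737 and 0.330 TPM at 27 °C, against 11.3, 14.7 and 12.2 TPM at 21 °C. GH9B15 in Col had 0.0681, 0.763 and 0 TPM at 27 °C, against 10.9, 11.6 and 8.77 TPM at 21 °C. In elf7-3 and Col it was nearly silent at 27 °C, and in h3.3kd it was not. At 27 °C h3.3kd exceeded Col by 2.62 ± 0.19 (adjusted p = 6.8e-09) and elf7-3 by 2.32 ± 0.19 (adjusted p = 2.48e-08). At 21 °C h3.3kd was above Col as well (0.69, a call lost without Col replicate 3, with 0.58 to 0.77 over the fits that leave out 1 library). AT5G46960, an invertase or pectin methylesterase inhibitor gene, averaged 7.25 ± 1.89 TPM at 27 °C, against 18.9 ± 3.53 TPM at 21 °C, in h3.3kd and 2.78 ± 1.66 TPM at 27 °C, against 31.5 ± 3.47 TPM at 21 °C, in Col. It was higher in h3.3kd at 27 °C (1.18 ± 0.22, adjusted p = 0.00024) and lower at 21 °C (-0.72, a call lost without Col replicate 1, Col replicate 2 or h3.3kd replicate 1, with -0.83 to -0.57 over the fits that leave out 1 library). XTH16, which remodels xyloglucan, averaged 26.98 ± 1.67 TPM at 27 °C, against 103 ± 24.3 TPM at 21 °C, in h3.3kd and 134 ± 8.66 TPM at 27 °C, against 248 ± 15.9 TPM at 21 °C, in Col, and was lower at both temperatures (-1.29 at 21 °C and -2.27 at 27 °C). In elf7-3 XTH16 was lower at 27 °C (-0.61, a call lost without elf7-3 replicate 3, with -0.74 to -0.46 over the fits that leave out 1 library) and at 21 °C (-0.47, a call lost without Col replicate 1, Col replicate 2, Col replicate 3 or elf7-3 replicate 1, with -0.59 to -0.29 over the fits that leave out 1 library). AT5G62360, of the same inhibitor family as AT5G46960, was lower in h3.3kd at both temperatures (-1.23 and -1.30). SIP2, of raffinose breakdown, averaged 156 ± 13.9 TPM at 27 °C, against 639 ± 205 TPM at 21 °C, in h3.3kd and was lower there than in elf7-3 at 27 °C (-0.82 ± 0.23, adjusted p = 0.00569). EMB2729, of the alpha-amylase family, was higher at 27 °C in h3.3kd (0.60) and in elf7-3 (0.73).

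4 genes belong to cytokinin and abscisic acid signalling. IPT3, a cytokinin synthesis enzyme, averaged 5.66 ± 0.661 TPM at 27 °C, against 13.99 ± 0.716 TPM at 21 °C, in h3.3kd, 5.30 ± 0.222 TPM at 27 °C, against 18.7 ± 1.26 TPM at 21 °C, in elf7-3 and 7.17 ± 0.335 TPM at 27 °C, against 18.1 ± 0.770 TPM at 21 °C, in Col (SD, n = 3 each). It was lower than Col in h3.3kd at 21 °C (-0.35 ± 0.089, adjusted p = 0.0055) and in elf7-3 at 27 °C (-0.37 ± 0.089, adjusted p = 0.00326). In h3.3kd it was lower at 27 °C as well (-0.30, a call lost without h3.3kd replicate 3, with -0.36 to -0.22 over the fits that leave out 1 library). AHP1, which passes the cytokinin signal to response regulators, was lower in h3.3kd at 27 °C (-0.52 ± 0.11, adjusted p = 0.000866). ARR7, a response regulator that damps the signal, was called in neither comparison of h3.3kd with Col (0.38 at 21 °C and 0.19 at 27 °C). In elf7-3 ARR7 was called against Col. It averaged 7.62 ± 1.61 TPM at 27 °C, against 14.8 ± 2.92 TPM at 21 °C, in elf7-3. In Col it averaged 4.47 ± 1.78 TPM at 27 °C, against 14.4 ± 1.41 TPM at 21 °C. PYL6, a receptor of abscisic acid, was lower in h3.3kd at 21 °C (-0.64 ± 0.17, adjusted p = 0.00808) and higher in elf7-3 (0.66 ± 0.17, adjusted p = 0.00846), with a difference of -1.30 between h3.3kd and elf7-3. At 27 °C it was lower in h3.3kd (-0.73).

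9 transcription regulators were among the 134, of which h3.3kd had 1 higher and 5 lower than Col at 21 °C, and 3 higher and 3 lower at 27 °C. elf7-3 had 2 higher and 2 lower at 21 °C, and 3 higher and 1 lower at 27 °C. PIF7, on chromosome 5 from 24638491 to 24640765, had 3.96, 4.15 and 3.76 TPM at 27 °C, against 12.1, 13.8 and 11.6 TPM at 21 °C, in h3.3kd. PIF7 in elf7-3 had 3.64, 5.58 and 4.21 TPM at 27 °C, against 9.74, 10.1 and 11.8 TPM at 21 °C. PIF7 in Col had 4.52, 5.14 and 4.47 TPM at 27 °C, against 13.3, 11.6 and 11.00 TPM at 21 °C. The genotypes overlapped at 21 °C. At 27 °C every h3.3kd library lay below every Col library, and the elf7-3 libraries overlapped with both. Log2 differences from Col were -0.20 ± 0.12 (adjusted p = 0.183) in h3.3kd and -0.074 ± 0.12 (adjusted p = 0.681) in elf7-3 at 27 °C, and neither mutant was called at 21 °C (0.060 and -0.17). A p that misses the threshold does not show that the levels were equal.

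AGL20, better known as SOC1, a MADS-box gene that promotes flowering, was higher than Col in both mutants. AGL20 in h3.3kd had 6.76, 4.20 and 6.08 TPM at 27 °C, against 12.9, 12.1 and 14.4 TPM at 21 °C. AGL20 in elf7-3 had 6.81, 5.69 and 4.34 TPM at 27 °C, against 10.2, 11.6 and 10.3 TPM at 21 °C. AGL20 in Col had 1.39, 1.83 and 1.20 TPM at 27 °C, against 7.69, 4.91 and 5.59 TPM at 21 °C. No Col library reached any mutant library at the same temperature. It was higher by 1.42 ± 0.17 (adjusted p = 2.44e-06) in h3.3kd and by 1.41 ± 0.17 (adjusted p = 8.41e-06) in elf7-3 at 27 °C, and by 1.02 ± 0.17 (adjusted p = 0.0002) in h3.3kd and by 0.74 ± 0.17 (adjusted p = 0.00354) in elf7-3 at 21 °C.

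YAB5, a YABBY gene of leaf polarity, averaged 2.93 ± 0.623 TPM at 27 °C, against 6.75 ± 0.912 TPM at 21 °C, in h3.3kd. It averaged 10.03 ± 0.830 TPM at 27 °C, against 21.9 ± 2.51 TPM at 21 °C, in elf7-3 and 4.97 ± 0.900 TPM at 27 °C, against 13.2 ± 0.931 TPM at 21 °C, in Col (SD, n = 3 each). It was lower than Col in h3.3kd (-0.88 ± 0.13, adjusted p = 7.52e-05 at 21 °C and -0.60 ± 0.13, adjusted p = 0.00112 at 27 °C) and higher in elf7-3 (0.68 ± 0.13, adjusted p = 0.00104 at 21 °C and 0.89 ± 0.13, adjusted p = 6.99e-05 at 27 °C). WOX1, a homeobox gene of leaf blade outgrowth, was lower in h3.3kd at both temperatures (-0.92 at 21 °C and -0.76 at 27 °C). ULT1, a trithorax-group factor of the shoot meristem, was lower in h3.3kd as well (-0.45 and -0.53). TCP4, which slows leaf cell division, was lower in elf7-3 at 21 °C (-0.55 ± 0.073, adjusted p = 2.98e-05) and in h3.3kd (-0.25, a call lost without Col replicate 3 or h3.3kd replicate 3, with -0.27 to -0.20 over the fits that leave out 1 library). The AP2/ERF gene TINY2 was lower in h3.3kd at 21 °C (-0.96 ± 0.23, adjusted p = 0.0039). RL4, a small MYB-like gene, was higher in h3.3kd than in elf7-3 at 27 °C (0.79 ± 0.13, adjusted p = 6.34e-05).

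Of the 7 lipid genes, 5 were lower and 0 higher than Col in h3.3kd at 21 °C, and 5 lower and 1 higher at 27 °C. In elf7-3 4 were lower and 0 higher at 21 °C, and 2 lower and 0 higher at 27 °C. FAD8 encodes a plastid desaturase that makes trienoic fatty acids. It averaged 7.83 ± 0.876 TPM at 27 °C, against 23.9 ± 1.61 TPM at 21 °C, in h3.3kd and 15.3 ± 2.72 TPM at 27 °C, against 39.3 ± 5.36 TPM at 21 °C, in Col (SD, n = 3 each), and h3.3kd was lower at 21 °C (-0.68) and 27 °C (-0.88). FAD8 overlaps PAI2 on the opposite strand by 61 bases, and without stated strand the reads there cannot be told apart. CDEF1, a cutinase, was lower in h3.3kd at both temperatures (-1.16 and -1.33). LACS1, a long-chain acyl-CoA synthetase of cuticle formation, was lower at 21 °C in h3.3kd (-0.28) and in elf7-3 (-0.40). At 27 °C it was lower in elf7-3 (-0.39) and in h3.3kd (-0.18, a call lost without Col replicate 1, with -0.21 to -0.13 over the fits that leave out 1 library). AT1G06360, a desaturase family gene, was higher in h3.3kd at 27 °C (0.51), the only higher lipid gene there, and lower in elf7-3 at 21 °C (-0.70). Its relative AT1G06100 was lower at 21 °C in elf7-3 (-1.74 ± 0.18, adjusted p = 2.44e-06) and in h3.3kd (-0.74, not called with a pseudocount of 0.1).

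Of the 7 transport genes, 4 were lower and 0 higher than Col in h3.3kd at 21 °C, and 4 lower and 2 higher at 27 °C. elf7-3 had 2 lower and 2 higher at 21 °C, and 1 lower and 3 higher at 27 °C. CAX1, which loads calcium into the vacuole, averaged 155 ± 5.83 TPM at 27 °C, against 512 ± 37.8 TPM at 21 °C, in elf7-3 and 78.2 ± 5.16 TPM at 27 °C, against 369 ± 25.99 TPM at 21 °C, in Col (SD, n = 3 each). It was higher in elf7-3 at both temperatures (0.47 ± 0.10, adjusted p = 0.00237 at 21 °C and 0.98 ± 0.10, adjusted p = 1.66e-06 at 27 °C) and in h3.3kd at 27 °C (0.39 ± 0.10, adjusted p = 0.00394). AT3G25190, of the vacuolar iron transporter family, was higher in elf7-3 too (0.68 at 21 °C and 0.95 at 27 °C). The ion channel gene CNGC10 was lower in h3.3kd at both temperatures (-0.999 and -1.41), and in elf7-3 at 27 °C (-0.70) and at 21 °C (-0.41, a call lost without elf7-3 replicate 1, with -0.52 to -0.30 over the fits that leave out 1 library). AT4G34950, of the major facilitator family, was higher at 27 °C in h3.3kd (0.96) and in elf7-3 (0.63). Of the 5 redox and detoxification genes, 2 were lower and 0 higher than Col in h3.3kd at 21 °C, and 4 lower and 0 higher at 27 °C. elf7-3 had 0 lower and 1 higher at 21 °C, and 1 lower and 0 higher at 27 °C. In h3.3kd at 27 °C GSTU8, a glutathione transferase, was at -0.83 and the sulfotransferase ST4B at -1.01. GSTU25 had 3.98, 10.9 and 47.3 TPM at 27 °C, against 28.9, 36.5 and 46.1 TPM at 21 °C, in h3.3kd, and these overlapped.

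Some genes with large values have no role in the groups above. AT1G22690, a gibberellin-regulated family gene, averaged 4.33 ± 2.44 TPM at 27 °C, against 31.2 ± 9.29 TPM at 21 °C, in h3.3kd and 51.2 ± 6.35 TPM at 27 °C, against 188 ± 16.6 TPM at 21 °C, in Col (SD, n = 3 each), and its log2 difference was -3.38 ± 0.22 (adjusted p = 1.52e-09) at 27 °C and -2.58 ± 0.22 (adjusted p = 1.26e-07) at 21 °C. AT5G03120, uncharacterised, was lower in h3.3kd (-2.63 ± 0.16, adjusted p = 1.03e-09 at 21 °C and -2.88 ± 0.16, adjusted p = 1.6e-10 at 27 °C). AT1G62480, a calcium-binding protein-like gene, averaged 74.01 ± 5.42 TPM at 27 °C, against 259 ± 67.7 TPM at 21 °C, in h3.3kd and 386 ± 2.34 TPM at 27 °C, against 1058 ± 56.2 TPM at 21 °C, in Col, a log2 difference of -2.37 at 27 °C and -2.05 at 21 °C. It was lower in elf7-3 at 27 °C too (-0.70). AT5G38940, a cupin, was lower in h3.3kd at 27 °C (-2.95 ± 0.16, adjusted p = 1.32e-10) and 21 °C (-1.48). In elf7-3 it was lower at 21 °C (-1.01 ± 0.16, adjusted p = 0.000144) and at 27 °C (-0.53, a call lost without Col replicate 1 or elf7-3 replicate 1, with -0.63 to -0.38 over the fits that leave out 1 library).

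AT2G05510 had 1.12, 1.37 and 2.22 TPM at 27 °C, against 55.8, 52.4 and 53.7 TPM at 21 °C, in h3.3kd. AT2G05510 in elf7-3 had 13.8, 18.4 and 23.9 TPM at 27 °C, against 41.5, 55.2 and 65.5 TPM at 21 °C. AT2G05510 in Col had 6.83, 6.23 and 6.07 TPM at 27 °C, against 40.9, 40.99 and 31.8 TPM at 21 °C. At 27 °C the 3 genotypes did not overlap, with elf7-3 highest and h3.3kd lowest. The log2 difference from Col at 27 °C was -1.54 ± 0.18 (adjusted p = 1.68e-06) in h3.3kd and 1.39 ± 0.18 (adjusted p = 1.65e-05) in elf7-3. At 21 °C it was higher in h3.3kd (0.51, a call lost without any 1 of the 6 libraries, with 0.39 to 0.57 over the fits that leave out 1 library). AT4G39675, uncharacterised, was lower in elf7-3 than in Col at 27 °C (-1.37 ± 0.21, adjusted p = 9.01e-05), and AT4G14020, of the RALF peptide family, was lower in both mutants at 21 °C (-1.26 in h3.3kd and -1.28 in elf7-3) and at 27 °C (-0.95 in h3.3kd and -0.85 in elf7-3). The neighbours AT1G29090, a cysteine proteinase family gene, and AT1G29100 were called lower than Col at both temperatures in both mutants. In elf7-3 at 27 °C AT1G29090 averaged 13.7 ± 4.58 TPM, against 28.9 ± 2.39 TPM in Col (SD, n = 3 each). AT1G29100 averaged 0.305 ± 0.003 TPM in elf7-3 at 27 °C, against 2.08 ± 0.344 TPM in Col.

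Pathways that the 134 genes belong to were followed through fixed lists, counting genes outside the 134 for warmth. The background for these counts, and for the warmth counts of the lists and markers that follow, is the share of all genes tested. In warmth 19.7% were lower and 26.1% higher in h3.3kd, 18.3% lower and 29.8% higher in elf7-3, and 22.1% lower and 32.9% higher in Col. Of 11 other cold and dehydration genes tested, 7 were lower and 2 higher in warmth in h3.3kd, 4 lower and 1 higher in elf7-3, and 5 lower and 4 higher in Col. Of 7 other genes of the photosystem II antenna, 4 were lower and 2 higher in h3.3kd, 2 lower and 3 higher in elf7-3, and 4 lower and 3 higher in Col. Of 8 other type-A response regulators of cytokinin signalling, 5 were lower in h3.3kd, 3 in elf7-3 and 4 in Col, and 0 were higher in any genotype. Of 3 other genes of the AZI1 family, 1 was lower in h3.3kd, 2 in elf7-3 and 3 in Col. EARLI1 at 0.062 TPM and AZI3, listed at 0, were at or near 0 in h3.3kd already at 21 °C, so only the remaining gene could be lower there. Of 7 other genes of inositol oxidation and sugar starvation, 2 were lower and 0 higher in h3.3kd, 0 lower and 3 higher in elf7-3, and 1 lower and 2 higher in Col. Outside the 134, the cold list moved in both directions in every genotype, as did the antenna list, and the sugar starvation list did in Col.

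Other lists held none of the 134 genes. Of 18 chaperones of the endoplasmic reticulum, 1 was lower and 7 higher in warmth in h3.3kd, 4 lower and 4 higher in elf7-3, and 4 lower and 3 higher in Col. Of 16 genes of salicylic acid immunity, 0 were lower and 3 higher in h3.3kd, 9 lower and 0 higher in elf7-3, and 4 lower and 1 higher in Col. Of 10 jasmonate genes, 2 were lower and 5 higher in h3.3kd, 2 lower and 2 higher in elf7-3, and 1 lower and 5 higher in Col. Among 14 genes of DNA replication and mitosis 10 were lower in h3.3kd, 7 in elf7-3 and 8 in Col, and 1 was higher in h3.3kd, 1 in elf7-3 and 0 in Col. Of the 5 H3.1 genes 3 were lower in h3.3kd, 4 in elf7-3 and all 5 in Col. Of 10 flavonoid genes, 4 were lower and 1 higher in h3.3kd, 0 lower and 3 higher in elf7-3, and 6 lower and 1 higher in Col.

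Chromosome and promoter motifs of the 134 genes were close to those of other genes, and their annotated length was shorter. Chromosome 1 held 36 of them (26.9%, against 26.1% of genes at 5 TPM in Col at 21 °C) and chromosome 3 held 30 (22.4%, against 20.1%). 8 pairs of neighbours gave 15 genes, among them AT4G15680, AT4G15690 and AT4G15700 of the glutaredoxin run. Others were COR15B with COR15A, AT3G05727 with AT3G05730 and AT5G64110 with AT5G64120. Their median length was 1621 bases, against 2481 for genes at 5 TPM. In the 250 bases before the start, the G-box CACGTG was found in 5.97% of the 134, against 7.45% of genes at 5 TPM. CCGAC was found in 11.9%, against 13.2%, and TTGACC or TTGACT, the W-box, in 29.9%, against 27.6%. TGACG was in 17.2%, against 19.0%, and TATAAA in 47.8%, against 45.8%. The evening element AAAATATCT was in 3.73%, against 2.52%, and the heat shock element core GAANNTTC in 6.72%, against 8.96%. ERSE was in none of the 134, against 0.41%. Both strands were searched, CCGAC and TGACG may overlap other motifs, and a match is a description of letters.

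Organ markers moved with temperature and genotype beside these results. All leaf markers were detected in every group, and root markers were too, save that NRT2.1 was listed at 0 in h3.3kd at 21 °C. The summed level of 17 root markers was 271 to 336 TPM in h3.3kd at 27 °C, against 209 to 229 TPM at 21 °C. It was 372 to 467 TPM at 27 °C and 331 to 380.3 TPM at 21 °C in elf7-3, and 405 to 472 TPM at 27 °C and 205 to 212 TPM at 21 °C in Col. Of 15 root markers tested, 4 were higher and 3 lower in warmth in h3.3kd, 3 higher and 2 lower in elf7-3, and 9 higher and 0 lower in Col. The 10 leaf markers summed to 53776 to 57975 TPM in h3.3kd at 27 °C, against 54896 to 60196 TPM at 21 °C. They summed to 36909 to 39853 TPM at 27 °C and 41028 to 46366 TPM at 21 °C in elf7-3, and 43779 to 49149.8 TPM at 27 °C and 46824 to 51555 TPM at 21 °C in Col. Against Col, h3.3kd had 1 root marker higher and 10 lower at 27 °C and 4 higher and 2 lower at 21 °C. elf7-3 had 2 higher and 4 lower at 27 °C and 9 higher and 0 lower at 21 °C. Of all genes, 31.6% were lower and 20.2% higher than Col in h3.3kd at 27 °C, and 20.8% lower and 12.7% higher at 21 °C. In elf7-3 18.5% were lower and 16.4% higher at 27 °C, and 15.4% lower and 13.3% higher at 21 °C. Of the 10 leaf markers, 2 were higher and 2 lower in warmth in h3.3kd, 2 higher and 5 lower in elf7-3, and 4 higher and 3 lower in Col.

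Seed storage genes, which mark remains of the embryo, summed to 227 to 296 TPM at 27 °C and 64.01 to 131 TPM at 21 °C in h3.3kd. In elf7-3 they summed to 104 to 138 TPM at 27 °C and 96.8 to 148 TPM at 21 °C, and in Col to 112 to 159.6 TPM at 27 °C and 141 to 212 TPM at 21 °C. Of 10 tested, 3 were higher and 2 lower in warmth in h3.3kd, 2 higher and 4 lower in elf7-3, and 1 higher and 7 lower in Col. Replicate 1 of h3.3kd at 27 °C had 3.42% of TPM in chloroplast genes, against 0.116% to 0.262% in the other libraries, and without it the rule gave 131 genes and h3.3kd had 88 of the 134 genes called against Col at 27 °C, against 93 with it. The part of these markers in the levels of the 134 genes was not tested.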

How the data were processed

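The 18 RNA-seq libraries came from whole 7-day-old seedlings of 3 genotypes at 27 or 21 °C, with 3 libraries per group. The file deposited by the authors holds TPM, each column summing to 1000000 over 27655 genes, and each of the 18 columns matched the labels of 1 library. Per the submitters' processing notes the tools were DESeq2 1.26.0, HTSeq 0.11.2, HISAT2 and fastp 0.20.1, with no role given to any, and the build was TAIR10. The way TPM were derived, the lengths behind them and the strand setting are not given in the sources used here. TPM shares a fixed sum, so a change in abundant genes shifts all others, and genes that are nearly alike may share reads.

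The members and lists were chosen with earlier results of these data known. W was computed from group mean TPM with a pseudocount of 1. In R 4.3.3, limma 3.58.1 was run on log2(TPM + 1) over the whole table, as 1 mean per group with a mean-dependent prior and 12 residual degrees of freedom, and 20048 genes were tested because 3 or more libraries reached 1 TPM. Calls are two-sided at a Benjamini-Hochberg adjusted p under 0.05 over all genes of a comparison, and the fit was tested on simulated data. Log2 values of TPM + 1 understate changes of genes at low levels. Replicate numbers did not pair libraries, as same-numbered libraries correlated in their deviations with r between -0.154 and 0.080.

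Names, coordinates, promoters and proteins' coding identity are from RefSeq on TAIR10.1, matched by locus for all 134 genes. Named were the 10 genes with the most negative mean W, the 10 most abundant in Col at 21 °C, the 3 genes on each side of the threshold, the 5 widest in W, the 4 largest rises and 4 largest falls per mutant comparison, members of the lists and of families with at least 3 members. Genes named as examples of a role were chosen after their values were seen, and among those, genes whose call was made without any 1 library were preferred. Alternatives were a pseudocount of 0.1, no filter, a filter at a mean of 5 TPM, a fit of only the compared groups, median-of-ratios scaling, a replicate block, a threshold of -1 and leaving out each library. Plots were drawn with matplotlib 3.10.9, and tables made with numpy 2.4.6 and pandas 2.3.3, in Python 3.11.15.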

Additional observations from a re-analysis of the deposited data

Results flagged for a closer look

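Some of the 134 genes were called against Col in opposite directions in the mutants, and differed between h3.3kd and elf7-3 in the direct comparison by limma (adjusted p under 0.05). The values that follow are log2 differences of TPM + 1, h3.3kd against elf7-3. The direct comparison was added after the data were seen, and the explanation of these differences was not tested.

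At 21 °C h3.3kd was above elf7-3 for the cold genes COR15B (2.39) and COR15A (2.31), for SAG21 (0.58) and for the asparagine synthetase ASN2 (0.55). It was below elf7-3 for YAB5 (-1.57), ESM1 (-1.35), the abscisic acid receptor PYL6 (-1.30), the nucleic acid-binding protein AT3G52630 (-1.25), the thioredoxin TRX5 (-0.84) and the phosphoglycerate mutase iPGAM1 (-0.62). The calls of COR15A in both mutants, of ASN2 and iPGAM1 in h3.3kd and of ESM1, AT3G52630 and TRX5 in elf7-3, each against Col, were lost without at least 1 of the libraries.

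At 27 °C h3.3kd was above elf7-3 for AT4G39675 (1.97), RL4 (0.79), AT3G19030 (0.73), SAG21 (0.72) and ASN2 (0.38). It was below elf7-3 for the glycine-rich protein AT2G05510 (-2.93), ESM1 (-2.56), YAB5 (-1.50), the dehydrin AT1G54410 (-0.84), the antenna gene LHCB3 (-0.75) and iPGAM1 (-0.48). SAG21, ASN2, ESM1, YAB5 and iPGAM1 were named at both temperatures, with the same sign at each. The calls of AT4G39675, RL4, ASN2, LHCB3 and iPGAM1 against Col were lost in at least 1 mutant without at least 1 of the libraries.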

How the results depend on the processing

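The rule gave 68 genes with W of at most -1, all among the 134, and 172 with a pseudocount of 0.1, 169 with median-of-ratios scaling and 149 with a floor of 1 TPM, all 134 among each. Leaving out 1 library gave between 130 and 140 genes, at least 125 of them among the 134. Genes called against Col in h3.3kd numbered 77 at 21 °C, 69 to 91 under the other alternatives and 65 to 75 without 1 library. At 27 °C they numbered 93, 82 to 95 and 83 to 89. In elf7-3 they numbered 53 at 21 °C, 46 to 67 and 36 to 45, and 58 at 27 °C, 55 to 60 and 49 to 56. Between the mutants they numbered 77 at 21 °C, 70 to 87 and 68 to 82, and 92 at 27 °C, 82 to 94 and 82 to 87. List genes called for warmth numbered 86 in h3.3kd, 69 to 88 and 75 to 84, in elf7-3 82, 62 to 83 and 67 to 76, and in Col 98, 76 to 97 and 87 to 92. Of 9545 single-gene values under the alternatives, 0 changed sign while called, 454 lost a call and 166 gained one. Among the calls given as lost without a library, 1 call each of AT5G18600, AT5G38940, AT2G05510, LHCB3, OEP6, FTSZ1-1, GH9B15, XTH16, LACS1, IPT3 and TCP4 was lost also under at least 1 of the other alternatives. Leaving out 1 library removes replicates, which alone lowers counts.

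With a replicate block the calls against Col numbered 74 in h3.3kd at 21 °C, 91 at 27 °C, and in elf7-3 54 at 21 °C and 60 at 27 °C, and 77 and 92 between the mutants at 21 and 27 °C. For warmth in the lists they numbered 85 in h3.3kd, 82 in elf7-3 and 97 in Col. The numbers did not pair the libraries, and at most 2 of 6 libraries of a comparison correlated best with their own number.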
